A study of Mus musculus with 3 samples.

Results

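Interferon-stimulated genes are the genes a cell switches on when interferon, the secreted alarm signal of viral infection, binds its receptors. A list of 37 of them was looked up by gene symbol in messenger RNA profiles of cultured mouse heart cells. Of the 37, 35 had a row in the deposited table of 18245 genes, and Mx1 and Mx2 did not. The list was drawn up because Isg15, a member, differed between libraries of the same cells, so every library is given apart.

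Type I interferons bind the receptor made of Ifnar1 and Ifnar2, whose kinases Jak1 and Tyk2 start the signal. Stat2 and Irf9 are parts of the complex ISGF3 that it switches on, which binds interferon-stimulated response elements (ISRE) in front of target genes. Type II interferon acts through Ifngr1 and Ifngr2 and at gamma-activated sites (GAS). Several sensors and transcription factors of the pathway are themselves targets of interferon.

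The 3 kinds of C57BL/6 cell, all labelled as ventricle epicardium, the outer layer of the heart, were profiled as 3 libraries each of mRNA selected by oligo(dT). Cardiosphere-derived cells (CDC) grew out of explants of mice aged 6 weeks by way of floating spheres and were used at passage 3. The second kind, CDC-EpiC, is epithelial clone 1, taken with a cloning cylinder out of CDC dishes. SB-431542, which inhibits TGF-beta receptor signalling, had been added to these dishes at 10 µM. The labels give 2 weeks as the time to epithelial clones, and the study's text gives 10 days. CDC-EpiC is a single clone, so its spread holds no difference between clones. No clone grown without the inhibitor was analysed here, so clone and inhibitor cannot be told apart. Primary epicardial cells (pEpiC) were freed by collagenase and trypsin from dissected hearts of mice aged 6 to 8 weeks and were also used at passage 3. The labels list 1 sample per kind, with 3 libraries in the table, and speak of separate RNA samples. The study's methods give fewer biological replicates per condition than there are libraries, while its figure legend on RNA sequencing of CDC and pEpiC gives n = 3. None of these sources says whether the libraries of a kind came from separate animals or cultures. SDs and p-values therefore measure the spread between these libraries only.

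Depth was even, with 22008833 to 22756045 expected counts (reads assigned to genes by a model) per library. Levels are CPM, counts scaled to a common library size by TMM over the 9 libraries. The epicardial transcription factor Wt1 reached 46.6 to 54.3 CPM in pEpiC and 112 to 133 CPM in CDC-EpiC against 9.31 to 11.4 CPM in CDC. The 8 epicardial markers listed were split in pEpiC vs CDC, with 4 higher and 4 lower, among the latter Tbx18 (log2 change -0.96), Upk3b (-1.77), Upk1b (-1.61) and Msln (-0.86), and Tbx18 was also lower in the clone than in CDC (-0.72). All 12 macrophage markers listed were detected in pEpiC, where their summed level was 337 to 974 CPM, against 72.6 to 74.5 CPM in CDC and 30.2 to 33.1 CPM in CDC-EpiC. In CDC, C1qb, Mrc1, Adgre1, Ptprc, Tyrobp and Fcer1g each held at most 3 counts in every library. In bulk RNA, fewer cells of a type and less RNA per cell cannot be told apart.

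To show what sequence lies in front of these genes, RefSeq promoter windows (GRCm38.p6, the assembly also called mm10; 250 bases before to 50 after the start site) were matched for 29 of the 35 members, some of which have more than 1 window. The ISRE was searched as GAAANNGAAA and the GAS as TTCNNNGAA, on both strands, with overlapping matches counted. An ISRE match stood in a window of 15 of the 29 members (51.7%), against 3.99% of the 27025 genes with a window. A GAS match stood in 8 of the 29 (27.6%), against 9.55% of all genes. Of the members, 4 had both motifs, 10 had neither, and in 1 window the matches of both motifs shared bases. A match is a string of letters and not a shown binding site.

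The windows printed here are those of Isg15 and of the members with the largest rise or fall in a comparison that had a window, written 5′ to 3′ on the gene's strand with ISRE matches in capitals. Isg15 (chr4:156200769-156201068, minus strand) held 3 overlapping matches that start at positions -78, -72 and -66 from the start site. Irgm1 (chr11:48871371-48871670, minus strand) held 2, from -30 and -24, and Trim30a (chr7:104465144-104465443, minus strand) held 1 on the opposite strand, from -36. Neither Ifi44 (chr3:151749861-151750160, minus strand) nor Psmb9 (chr17:34187281-34187580, minus strand) held one, and the Psmb9 window overlaps that of the member Tap1, which is read the other way.
Isg15: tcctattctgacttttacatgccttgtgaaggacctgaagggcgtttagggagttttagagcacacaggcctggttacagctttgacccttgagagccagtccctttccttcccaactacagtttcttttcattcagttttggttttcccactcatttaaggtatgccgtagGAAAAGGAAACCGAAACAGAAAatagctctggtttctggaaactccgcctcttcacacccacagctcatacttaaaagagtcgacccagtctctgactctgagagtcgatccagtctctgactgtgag
Irgm1: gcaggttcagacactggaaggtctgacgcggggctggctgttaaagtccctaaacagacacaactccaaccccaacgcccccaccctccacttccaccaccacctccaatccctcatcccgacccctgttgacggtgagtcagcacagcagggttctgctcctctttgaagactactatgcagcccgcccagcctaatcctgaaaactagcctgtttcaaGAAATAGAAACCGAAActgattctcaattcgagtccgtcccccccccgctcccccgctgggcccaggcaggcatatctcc
Trim30a: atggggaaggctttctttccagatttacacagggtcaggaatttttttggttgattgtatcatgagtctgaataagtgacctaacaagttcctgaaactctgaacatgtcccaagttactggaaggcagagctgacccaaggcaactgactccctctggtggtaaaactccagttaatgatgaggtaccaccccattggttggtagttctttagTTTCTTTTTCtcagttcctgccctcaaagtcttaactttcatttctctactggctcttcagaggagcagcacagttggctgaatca
Ifi44: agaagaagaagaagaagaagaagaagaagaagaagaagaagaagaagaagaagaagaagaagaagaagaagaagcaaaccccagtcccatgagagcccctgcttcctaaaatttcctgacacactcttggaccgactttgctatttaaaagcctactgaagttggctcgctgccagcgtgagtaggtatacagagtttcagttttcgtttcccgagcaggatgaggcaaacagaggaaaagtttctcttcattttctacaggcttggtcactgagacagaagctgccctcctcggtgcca
Psmb9: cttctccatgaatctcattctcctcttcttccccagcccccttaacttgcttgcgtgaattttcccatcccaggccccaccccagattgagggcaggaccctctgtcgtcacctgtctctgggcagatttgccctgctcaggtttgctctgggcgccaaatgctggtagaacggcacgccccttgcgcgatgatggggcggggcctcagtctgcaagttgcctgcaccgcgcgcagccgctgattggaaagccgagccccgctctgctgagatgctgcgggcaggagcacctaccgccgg

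Library 3 of pEpiC and library 3 of CDC held more of nearly every member than the other libraries of their kind, and library 1 of CDC-EpiC held less. In pEpiC, all 35 members were highest in library 3, where 34.29% of the 12569 tested genes at 1 CPM or more were highest. The ratio of library 3 to the mean of libraries 1 and 2 had a median of 1.90 over the members (range 1.07 to 4.01) and of 1.001 over all genes. It passed 1.5 for 27 members (77.14%) and for 1.01% of all genes. In CDC, 32 of the 35 members were highest in library 3 (45.39% of all genes), with a median ratio of 1.55, and 21 passed 1.5-fold. In CDC-EpiC, 32 of the 34 members at 1 CPM or more were lowest in library 1 (38.69% of all genes), at a median of 0.743 of the other libraries' mean. That library was also lowest for 7 of the 8 epicardial markers (median ratio 0.881) and 9 of 12 negative regulators of the pathway (0.900). It was lowest for 5 of 11 interferon receptors and signal transducers (0.985). Because Isg15 led to the list and the list was chosen with earlier results known, these counts are not independent of the choice.

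**Figure D1:**
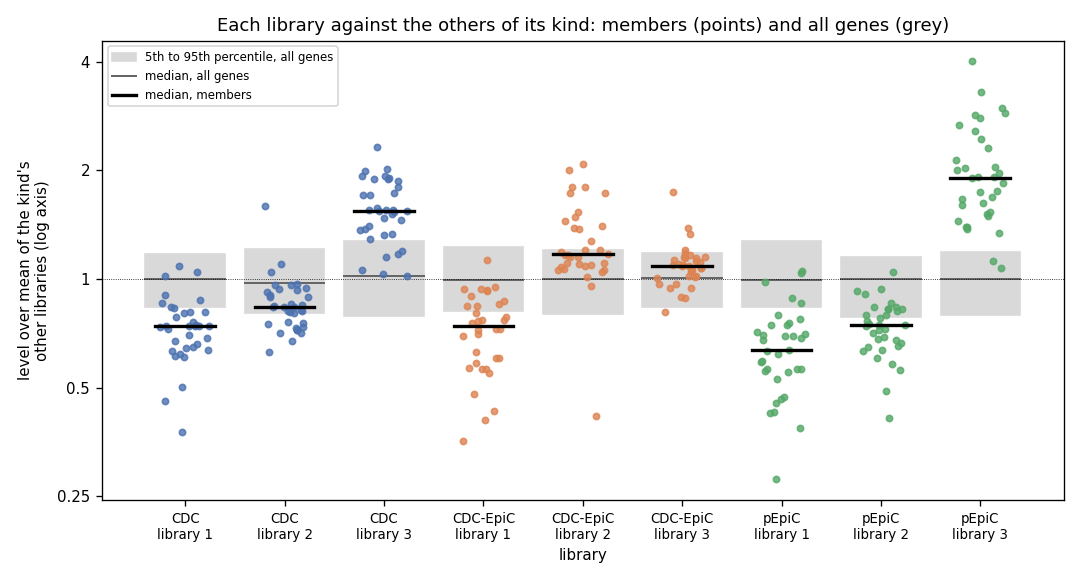
Level of each member in a library divided by the mean of the other libraries of that kind (points, log axis). The black bar is the median of the members. Grey gives the median and 5th to 95th percentile of all tested genes at 1 CPM or more. In library 3 of pEpiC all members lie above 1, with a median of 1.90, while the grey median stays at 1.001.

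The coefficient of variation between libraries put the same pattern on one scale. Its median over the members was 27.4% in CDC, 18.2% in CDC-EpiC and 40.1% in pEpiC, against 7.72%, 6.44% and 5.05% over all genes. The 11 receptors and signal transducers of the pathway varied by 5.21%, 6.35% and 3.91% (medians), close to all genes. Among the members, Ifi44 varied most in pEpiC (86.7%) and Ifit2 least (6.76%). Members with an ISRE match had pEpiC library 3 ratios of 1.54 to 3.31 (median 1.92, n = 15), and members whose windows held none had 1.07 to 4.01 (median 1.47, n = 14). The 6 members without a window had 1.52 to 2.89 (median 2.31). The ranges of all these groups overlap, and no test was made between them.

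Macrophage markers were spread over the pEpiC libraries in another order. Their summed level was 974 CPM in library 1, 363 CPM in library 2 and 337 CPM in library 3, whereas the members summed to 1106, 1238 and 2156 CPM. All 12 markers were highest in library 1, the library in which 29 of the 35 members were lowest. Within CDC the marker sum moved from 72.6 to 74.5 CPM while the member sums were 975, 1037 and 1499 CPM. Cardiomyocyte markers did move with the libraries of CDC and pEpiC. Among the markers tested, the 3 at 1 CPM or more in CDC were all lowest in library 3 (median ratio 0.473). The 2 in pEpiC were lowest in library 3 too (0.735). Of the 3 in CDC-EpiC, 2 were lowest in library 3 and 1 in library 2, whereas most members were lowest in library 1. Myh6, the cardiac myosin heavy chain, picked out after its values were seen, held 191, 190 and 0 counts in CDC libraries 1 to 3. Myh6 and other markers that were not tested had a CDC mean above 1 CPM and are outside these counts. The part of these markers in the members' library pattern was not tested.

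**Figure D2:**
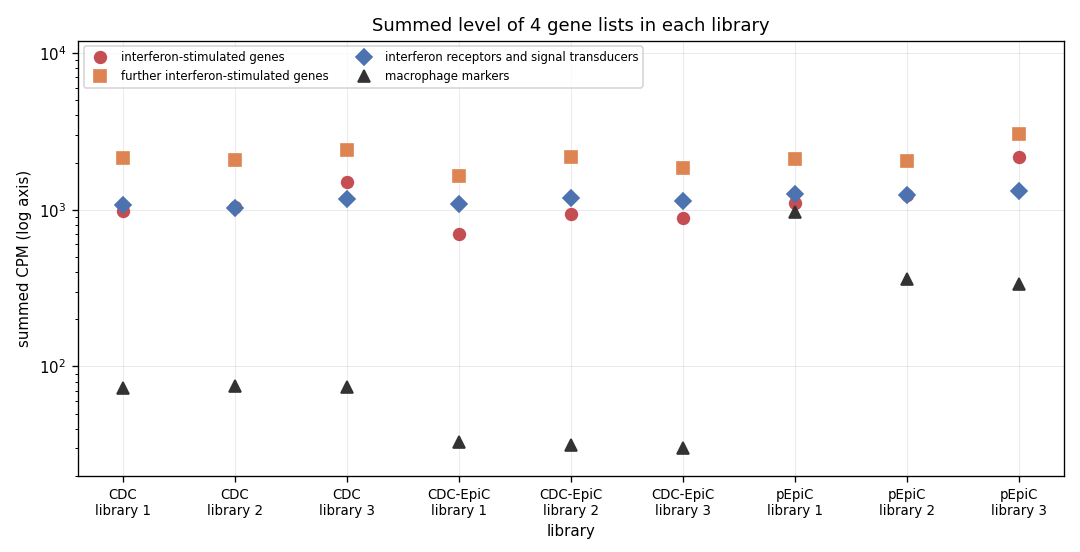
Summed CPM (log axis) of 4 gene lists in each of the 9 libraries, 1 point per list and library. The interferon-stimulated genes are highest in library 3 of CDC (1499 CPM) and of pEpiC (2156 CPM), the receptors and signal transducers stay between 1018 and 1308 CPM, and the macrophage markers are highest in library 1 of pEpiC (974 CPM).

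The members spanned wide levels. Per transcript length (TPM, the share of transcripts), Bst2, a membrane tether that holds budding virus at the cell surface, had the highest mean in every kind, with 275 ± 84.3 TPM in CDC, 194 ± 39.8 TPM in CDC-EpiC and 376 ± 157 TPM in pEpiC (SD, n = 3). In CDC it was followed by Irgm1 (130 ± 29.3 TPM) and Ifit3 (107 ± 43.2 TPM), and in pEpiC by Ifit3 (236 ± 103 TPM) and Irgm1 (97.6 ± 39.3 TPM). The lowest means were those of Ifi44 (0.293 ± 0.132 TPM) and Trim30a (0.563 ± 0.257 TPM) in CDC-EpiC. The mean ± SD ranges overlapped for Ifit3 and Irgm1 in CDC and in pEpiC, for Bst2 and Ifit3 in pEpiC, and for Ifi44 and Trim30a in CDC-EpiC. Ranked by mean CPM over kinds, 17 members had the order CDC-EpiC, CDC, pEpiC from low to high, 6 had CDC, CDC-EpiC, pEpiC, and 5 had CDC-EpiC, pEpiC, CDC. The other 7 members followed other orders.

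**Figure D3:**
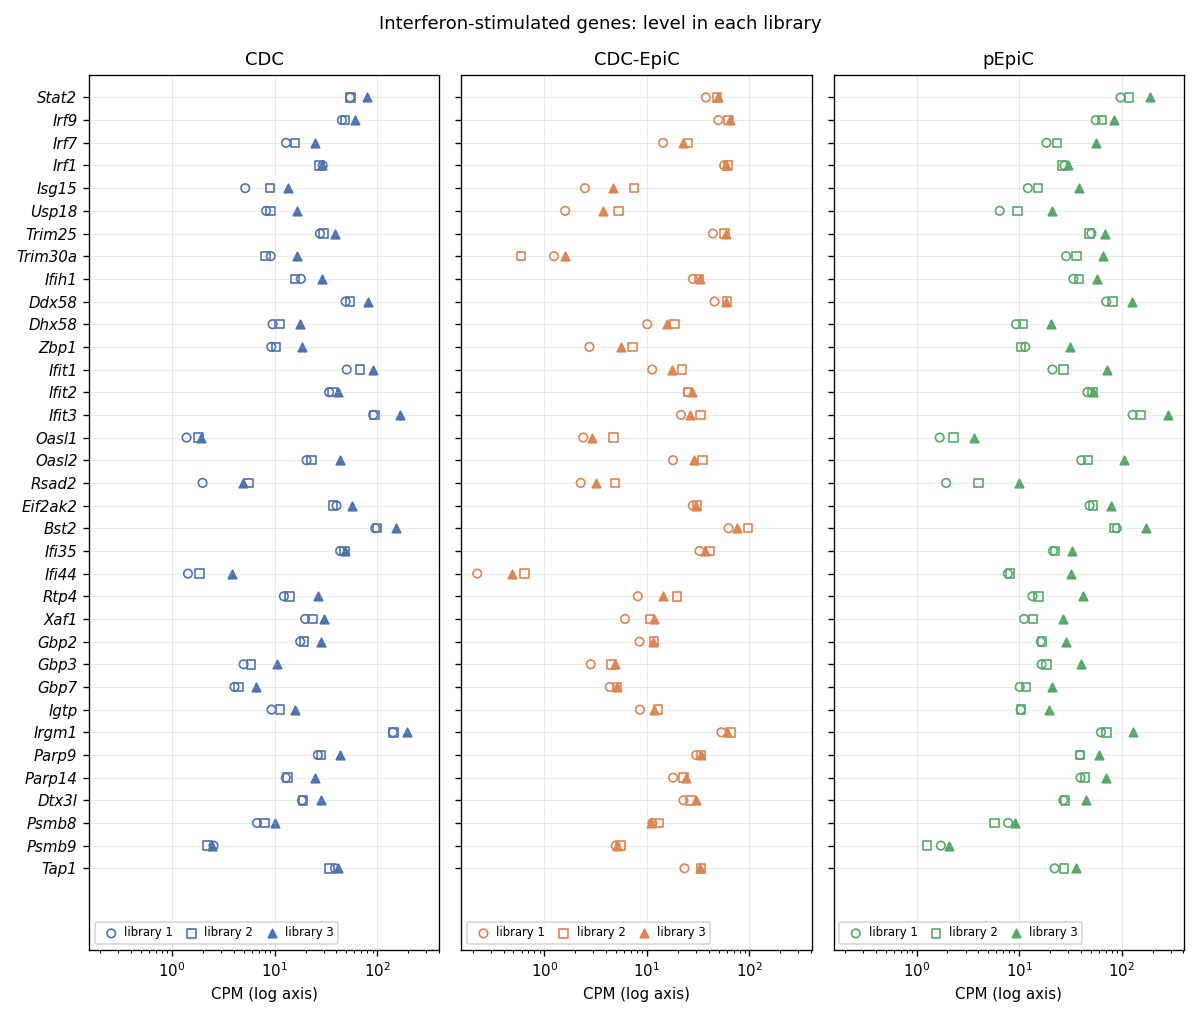
CPM (log axis) of the 35 members in each library, 1 panel per kind of cell, with libraries 1 to 3 as circle, square and triangle. The triangles of CDC and pEpiC lie to the right of the other symbols for most members, and Ifi44 and Trim30a lie furthest left in CDC-EpiC.

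Primary epicardial cells held more of 14 members and less of 4 than CDC, the comparison that asks how far CDC differ from the epicardial cells of their tissue of origin. Ifi44, Trim30a, Gbp3, Parp14 and Gbp7 led the rise and Irgm1 and Ifi35 the fall. With edgeR and Benjamini-Hochberg adjustment over all 13526 genes tested, 51.43% of the members passed, against 78.3% of all genes (39.8% higher and 38.5% lower). The groups did not overlap for 12 members, against 81.4% of all genes. The median log2 change was 0.39 over the members and 0.02 over all genes. The members' shares lay below those of all genes, most of which differed between these kinds. Markers of macrophages were higher in pEpiC as well (11 of 12), and their part in the members' changes was not tested. The count rested on single libraries: without pEpiC library 3 it was 9 higher and 8 lower, without CDC library 1 or without CDC library 2 it was 9 higher, without CDC library 3 it was 18 higher and 2 lower, and without library 3 of both kinds it was 18 higher and 7 lower. Of the 14, 9 members (Ifi44, Trim30a, Gbp3, Parp14, Gbp7, Stat2, Ifih1, Trim25 and Ifit2) passed whichever library was left out, and Isg15, Oasl2, Ddx58, Dtx3l and Irf9 did not. Of the 4 that were lower, Ifi35 and Irgm1 did so.

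The clone held less of 17 members and more of 6 than the CDC it was picked from. Trim30a, Ifi44, Ifit3 and Ifit1 led the fall, and Psmb9, Irf1 and Oasl1 the rise. Of the members, 65.71% passed, against 68.8% of 12976 genes (34.2% higher and 34.6% lower), and the groups did not overlap for 20 members, against 72.1% of all genes. The median log2 change was -0.34 over the members, as against 0.00 over all genes. Leaving out CDC library 3 gave 12 higher and 15 lower. The 6 members that were higher and 15 of the 17 that were lower passed whichever library was left out, the exceptions being Isg15 and Gbp3.

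Against pEpiC, the clone held less of 20 members and more of 4, the latter being Psmb9, Irf1, Psmb8 and Ifi35. Here 68.57% of the members passed, against 81.9% of 13547 genes (40.3% higher and 41.5% lower), and 20 did not overlap, against 83.8% of all genes. The median log2 change was -0.76 over the members and -0.02 over all genes. The 4 that were higher and 16 of the 20 that were lower passed whichever library was left out, the exceptions being Ifit1, Ifih1, Xaf1 and Irgm1. Macrophage markers were lower in the clone than in pEpiC as well (11 of 12), and their part in the members' changes was not tested. Each pair of comparisons shares 3 libraries, so the values that follow stand side by side and are not independent of one another.

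**Figure D4:**
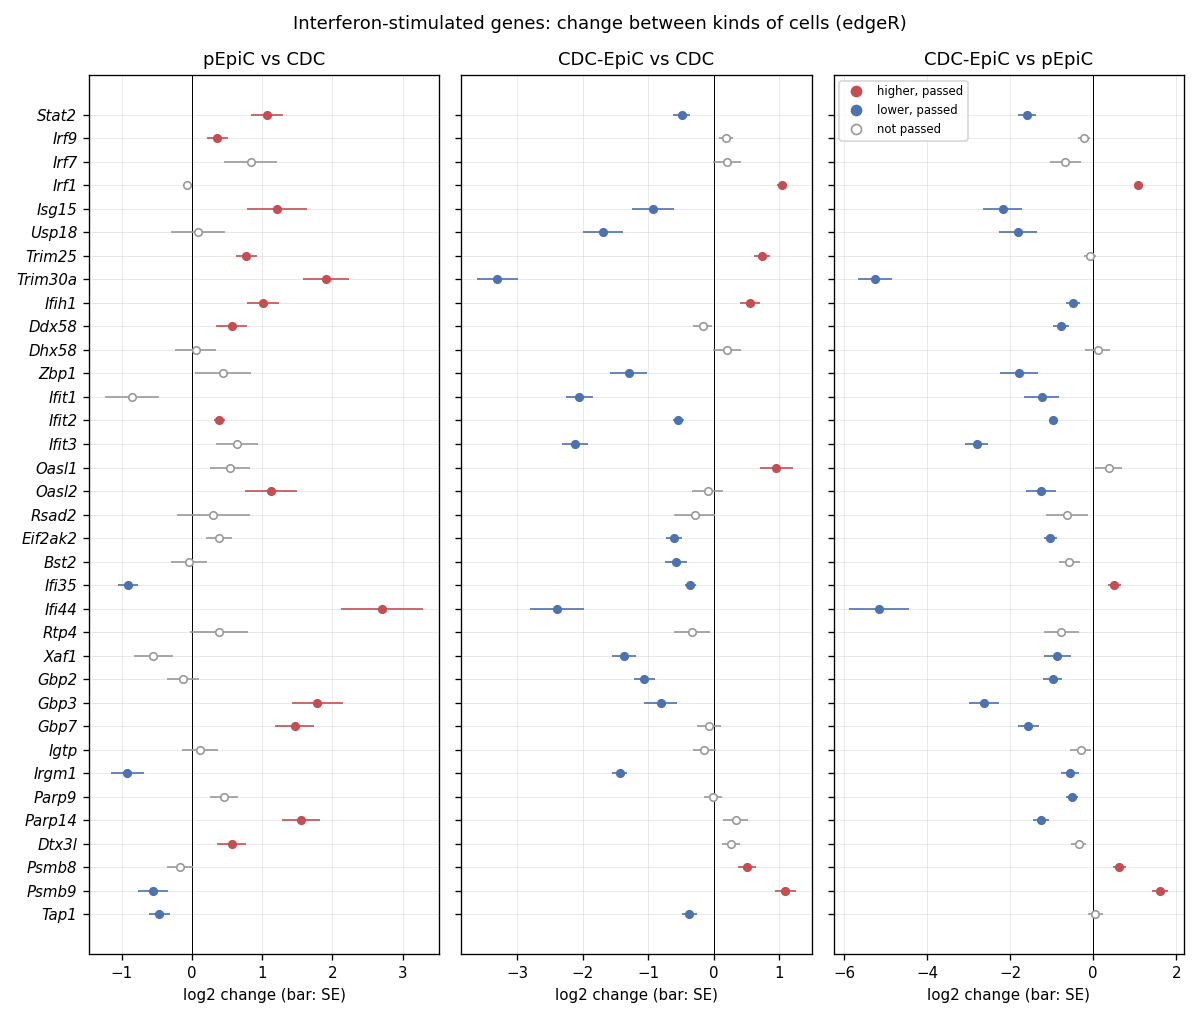
Log2 change of the 35 members in the 3 comparisons (horizontal axes, which differ in range; bars are standard errors), filled where the adjusted p passed 0.05. Filled points lie mostly to the right of 0 for pEpiC vs CDC (14 of 18) and mostly to the left for CDC-EpiC vs CDC (17 of 23) and CDC-EpiC vs pEpiC (20 of 24).

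Among the transcription factors, Stat2, a subunit of ISGF3, stood at 54.3, 54.6 and 79.4 CPM in CDC libraries 1 to 3, at 37.6, 48.0 and 49.4 CPM in CDC-EpiC and at 97.3, 118 and 189 CPM in pEpiC. The 3 kinds did not overlap in any pair. Its log2 change was 1.07 ± 0.23 in pEpiC vs CDC (SE; adjusted p = 0.00142), -0.49 ± 0.13 in CDC-EpiC vs CDC (adjusted p = 0.00443) and -1.60 ± 0.22 in CDC-EpiC vs pEpiC (adjusted p = 6.17e-05). Irf9, the DNA-binding part of ISGF3, spanned 45.3 to 60.4 CPM in CDC, 49.7 to 64.4 CPM in CDC-EpiC and 55.7 to 83.4 CPM in pEpiC, and passed only in pEpiC vs CDC, at 0.36 ± 0.14 (adjusted p = 0.0382) with overlapping groups.

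Irf7, which amplifies the production of type I interferon, stood at 12.9, 15.7 and 24.8 CPM in CDC, 14.4, 25.3 and 22.3 CPM in CDC-EpiC and 18.4, 23.5 and 56.0 CPM in pEpiC, and passed in no comparison, although it did in pEpiC vs CDC under 10 of 17 alternatives. The ranges of the 3 kinds overlapped. Irf1, a factor that also answers to type II interferon and to inflammatory signals, behaved otherwise. It stood at 29.4, 27.4 and 29.0 CPM in CDC, at 56.7, 62.0 and 59.6 CPM in CDC-EpiC and at 27.7, 26.3 and 30.2 CPM in pEpiC. The clone lay above both other kinds in every library. Its log2 change was 1.05 ± 0.07 against CDC (adjusted p = 7.16e-09) and 1.07 ± 0.06 against pEpiC (adjusted p = 1.23e-07). In pEpiC vs CDC the change was -0.06 ± 0.07 (adjusted p = 0.426), a sign that turned under 4 of 17 alternatives.

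Isg15 (chr4:156199424-156200818), the ubiquitin-like protein that is attached to newly made proteins, stood at 5.16, 8.98 and 13.5 CPM in CDC libraries 1 to 3, at 2.48, 7.47 and 4.71 CPM in CDC-EpiC and at 12.2, 15.3 and 38.3 CPM in pEpiC, or 282, 352 and 877 counts in the last. pEpiC library 3 was the highest of all, and the ranges of CDC and pEpiC, and of CDC and CDC-EpiC, overlapped. The log2 change was 1.21 ± 0.43 in pEpiC vs CDC (adjusted p = 0.0246), and the call was lost without pEpiC library 3 (0.54, adjusted p = 0.132), without CDC library 1 (0.92, adjusted p = 0.105) and without CDC library 2 (1.195, adjusted p = 0.0674). Without library 3 of both kinds it held, at 0.91 (adjusted p = 0.0111). In CDC-EpiC vs CDC it was -0.92 ± 0.33 (adjusted p = 0.0199), and this call was lost without CDC library 3 (-0.55, adjusted p = 0.153), without CDC-EpiC library 1 (-0.61, adjusted p = 0.107) and without CDC-EpiC library 3 (-0.91, adjusted p = 0.0596). In CDC-EpiC vs pEpiC it was -2.18 ± 0.47 (adjusted p = 0.00156) with no overlap. The deposited counts of Isg15 were not whole in any of the 9 libraries, so some of its reads were shared with another locus by the counting model.

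Usp18, the protease that removes Isg15 and dampens the type I receptor, followed it in part. It stood at 8.25, 9.11 and 16.4 CPM in CDC, at 1.60, 5.29 and 3.69 CPM in CDC-EpiC and at 6.46, 9.62 and 20.7 CPM in pEpiC. All libraries of the clone lay below all others, with a log2 change of -1.69 ± 0.31 against CDC (adjusted p = 0.000182) and -1.81 ± 0.46 against pEpiC (adjusted p = 0.00451), while pEpiC vs CDC was 0.09 ± 0.38 (adjusted p = 0.846). Trim25, a ubiquitin ligase that activates the RNA sensor Ddx58, was higher in both other kinds than in CDC. It stood at 27.7, 29.9 and 38.5 CPM in CDC, at 44.1, 57.3 and 59.3 CPM in CDC-EpiC and at 50.6, 48.7 and 69.0 CPM in pEpiC, with log2 changes of 0.77 ± 0.15 (pEpiC vs CDC, adjusted p = 0.000702) and 0.73 ± 0.12 (CDC-EpiC vs CDC, adjusted p = 7.99e-05).

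Trim30a, a negative regulator of inflammatory signalling in the mouse, had the largest fitted change of the members in both comparisons with the clone. It stood at 9.17, 8.12 and 16.7 CPM in CDC, at 1.24, 0.592 and 1.60 CPM in CDC-EpiC and at 28.7, 36.2 and 66.0 CPM in pEpiC. No kind overlapped another, and the clone held 28, 13 and 36 counts. Its log2 change was 1.91 ± 0.33 in pEpiC vs CDC (adjusted p = 0.000345), -3.30 ± 0.31 in CDC-EpiC vs CDC (adjusted p = 1.67e-07) and -5.25 ± 0.40 in CDC-EpiC vs pEpiC (adjusted p = 8.85e-07). Its windows each held 1 ISRE match.

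The sensors of viral RNA among the members are Ifih1 and Ddx58, which signal through Mavs, and Dhx58, their relative without signalling domains. Ifih1 stood at 18.0, 15.8 and 28.9 CPM in CDC, at 28.1, 32.1 and 32.6 CPM in CDC-EpiC and at 33.7, 38.4 and 57.7 CPM in pEpiC. The order CDC, CDC-EpiC, pEpiC passed at each step, by a log2 change of 0.56 ± 0.16 (CDC-EpiC vs CDC, adjusted p = 0.00587) and -0.50 ± 0.17 (CDC-EpiC vs pEpiC, adjusted p = 0.0201), the latter not without CDC-EpiC library 1 (-0.43, adjusted p = 0.0835). Ddx58 spanned 49.2 to 80.6 CPM in CDC, 45.6 to 60.2 CPM in CDC-EpiC and 70.6 to 127 CPM in pEpiC, and passed in pEpiC vs CDC (0.57 ± 0.22, adjusted p = 0.0381) and in CDC-EpiC vs pEpiC (-0.77 ± 0.19, adjusted p = 0.0041). Dhx58 spanned 9.35 to 20.7 CPM over all 9 libraries and passed in no comparison.

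Zbp1, a sensor of left-handed nucleic acid, was lower in the clone than elsewhere. It stood at 9.27, 10.3 and 18.3 CPM in CDC, at 2.75, 7.20 and 5.56 CPM in CDC-EpiC and at 11.5, 10.4 and 31.2 CPM in pEpiC. The clone did not overlap the other kinds, at -1.30 ± 0.28 against CDC (adjusted p = 0.000691) and -1.79 ± 0.45 against pEpiC (adjusted p = 0.00406), and pEpiC vs CDC did not pass (0.45 ± 0.40, adjusted p = 0.322).

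The Ifit proteins, which bind viral RNA and block its translation, lie in 1 cluster on chromosome 19 and did not all have the same sign of change. Ifit1 stood at 50.4, 68.2 and 91.8 CPM in CDC, at 11.3, 22.1 and 17.7 CPM in CDC-EpiC and at 21.1, 27.0 and 71.5 CPM in pEpiC. Ifit3 stood at 91.3, 94.2 and 167 CPM in CDC, at 21.5, 33.2 and 26.5 CPM in CDC-EpiC and at 128, 153 and 282 CPM in pEpiC. The clone was low in both, at -2.05 ± 0.21 (Ifit1, adjusted p = 4.25e-07) and -2.13 ± 0.20 (Ifit3, adjusted p = 1.71e-07) against CDC, with no overlap. In pEpiC vs CDC their fitted changes had opposite signs and neither passed: -0.85 ± 0.39 for Ifit1 (adjusted p = 0.065) and 0.64 ± 0.30 for Ifit3 (adjusted p = 0.0689). Without library 3 of both kinds both passed, at -1.35 for Ifit1 (adjusted p = 0.000204) and 0.55 for Ifit3 (adjusted p = 0.000804).

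Ifit2 was the steadiest of the family between libraries. It stood at 34.0, 36.5 and 41.4 CPM in CDC, at 25, 25.2 and 27.4 CPM in CDC-EpiC and at 46.3, 51.7 and 52.5 CPM in pEpiC. No kinds overlapped, and the log2 change was 0.39 ± 0.08 in pEpiC vs CDC (adjusted p = 0.00119), -0.54 ± 0.09 in CDC-EpiC vs CDC (adjusted p = 5.85e-05) and -0.97 ± 0.07 in CDC-EpiC vs pEpiC (adjusted p = 3.57e-07). Ifit1 and Ifit3 each held 2 ISRE matches in their window, and neither Ifit2 window held any.

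Other antiviral effectors split by kind. Oasl2, an oligoadenylate synthetase-like protein, stood at 20.5, 22.98 and 43.2 CPM in CDC, at 18.0, 34.9 and 29.1 CPM in CDC-EpiC and at 40.3, 46.7 and 106 CPM in pEpiC. It was higher in pEpiC than in CDC (1.12 ± 0.37, adjusted p = 0.0174), a call lost without pEpiC library 3 (0.56, adjusted p = 0.0751), without CDC library 1 (0.92, adjusted p = 0.0836) and without CDC library 2 (0.98, adjusted p = 0.0692). Its relative Oasl1, which restrains Irf7 translation, spanned 1.38 to 4.74 CPM over all libraries and was higher in the clone than in CDC (0.96 ± 0.25, adjusted p = 0.00354).

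Eif2ak2, the kinase PKR that halts translation on sensing double-stranded RNA, spanned 36.9 to 56.9 CPM in CDC, 28.0 to 30.7 CPM in CDC-EpiC and 48.6 to 77.8 CPM in pEpiC. The clone lay below both, at -0.60 ± 0.13 against CDC (adjusted p = 0.000552) and -1.03 ± 0.15 against pEpiC (adjusted p = 0.000128). Bst2 spanned 95.8 to 152 CPM in CDC, 62.5 to 96.8 CPM in CDC-EpiC and 84.9 to 172 CPM in pEpiC. It passed only in CDC-EpiC vs CDC (-0.57 ± 0.16, adjusted p = 0.00544). In CDC-EpiC vs pEpiC it gained a call as lower under 8 of 16 alternatives. Rsad2, the antiviral enzyme viperin, spanned 1.94 to 9.87 CPM over all libraries and passed in no comparison, nor did Rtp4, a chaperone of surface receptors, which spanned 8.16 to 41.9 CPM.

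Ifi44, an interferon-induced protein of the cytoplasm, showed the widest range in proportion to its level. It stood at 1.43, 1.86 and 3.82 CPM in CDC, at 0.222, 0.638 and 0.489 CPM in CDC-EpiC and at 7.75, 8.15 and 31.9 CPM in pEpiC, which correspond to 31, 41 and 84, to 5, 14 and 11 and to 180, 188 and 730 counts. The kinds did not overlap, and pEpiC library 3 held 4.01 times the mean of the other pEpiC libraries. The log2 change was 2.71 ± 0.59 in pEpiC vs CDC (adjusted p = 0.00169), 1.71 without pEpiC library 3 (adjusted p = 0.000929), -2.40 ± 0.41 in CDC-EpiC vs CDC (adjusted p = 9.81e-05) and -5.15 ± 0.72 in CDC-EpiC vs pEpiC (adjusted p = 8.16e-05). Ifi35, an interferon-induced leucine zipper protein, went the other way. It stood at 43.5, 48.1 and 48.5 CPM in CDC, at 32.6, 40.6 and 37.04 CPM in CDC-EpiC and at 21.4, 22.4 and 32.8 CPM in pEpiC, and was lower in pEpiC than in CDC (-0.91 ± 0.14, adjusted p = 0.000158). Xaf1, a pro-apoptotic interferon target, was lower in the clone than in CDC (-1.37 ± 0.19, adjusted p = 9.34e-06), at 6.12 to 11.7 CPM against 19.8 to 30.1 CPM.

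The interferon-inducible GTPases attack the membranes around intracellular pathogens. Gbp3 stood at 4.98, 5.85 and 10.5 CPM in CDC, at 2.84, 4.51 and 4.89 CPM in CDC-EpiC and at 16.5, 18.4 and 40.4 CPM in pEpiC. Gbp7 stood at 4.06, 4.44 and 6.60 CPM in CDC, at 4.35, 5.10 and 5.07 CPM in CDC-EpiC and at 10.1, 11.7 and 20.9 CPM in pEpiC. Both rose in pEpiC vs CDC without overlap, Gbp3 by a log2 change of 1.79 ± 0.36 (adjusted p = 0.00107) and Gbp7 by 1.46 ± 0.28 (adjusted p = 0.000679). Gbp2, from the same cluster on chromosome 3, spanned 17.8 to 28.5 CPM in CDC and 16.2 to 28.8 CPM in pEpiC and fell in the clone (8.47 to 11.7 CPM, -1.06 ± 0.16 against CDC, adjusted p = 3.12e-05).

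Irgm1, a GTPase that keeps other members of its family off host membranes, was the most counted GTPase and was highest in CDC. It stood at 142, 144 and 196 CPM in CDC, at 53.2, 65.6 and 60.5 CPM in CDC-EpiC and at 62.7, 70.8 and 128 CPM in pEpiC. Both other kinds lay below all CDC libraries, at -0.92 ± 0.23 (pEpiC vs CDC, adjusted p = 0.00444) and -1.43 ± 0.12 (CDC-EpiC vs CDC, adjusted p = 3.24e-08). Igtp, which Irgm1 regulates, spanned 8.56 to 19.7 CPM over all libraries and passed in no comparison.

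Parp9, Parp14 and Dtx3l, neighbours on chromosome 16, encode ADP-ribosyltransferases and the ubiquitin ligase that pairs with Parp9. Parp14 stood at 12.9, 13.4 and 24.8 CPM in CDC, at 18.0, 22.7 and 24.1 CPM in CDC-EpiC and at 39.6, 43.6 and 70.2 CPM in pEpiC. Every pEpiC library lay above all others, at 1.55 ± 0.27 against CDC (adjusted p = 0.00034), and CDC-EpiC vs pEpiC was -1.26 ± 0.20 (adjusted p = 0.000211). Dtx3l was higher in pEpiC than in CDC by 0.57 ± 0.21 (adjusted p = 0.0288) with overlap, and Parp9 did not pass there (0.46 ± 0.20, adjusted p = 0.056). Parp9 and Dtx3l overlap at their starts, and counting by strand is not given in the sources used here.

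The list also holds members of antigen processing. Psmb9 and Psmb8 are the interferon-inducible catalytic subunits of the immunoproteasome, and Tap1 forms with Tap2 the peptide pump of the endoplasmic reticulum. Psmb9 stood at 2.54, 2.22 and 2.46 CPM in CDC, at 4.97, 5.51 and 5.07 CPM in CDC-EpiC and at 1.72, 1.26 and 2.05 CPM in pEpiC. The clone lay above both others, at 1.10 ± 0.16 against CDC (adjusted p = 1.63e-05) and 1.61 ± 0.19 against pEpiC (adjusted p = 2.15e-05). Psmb8 spanned 6.73 to 10.1 CPM in CDC, 10.9 to 13.2 CPM in CDC-EpiC and 5.72 to 9.08 CPM in pEpiC and was likewise higher in the clone, by 0.50 ± 0.14 and 0.63 ± 0.16 (adjusted p = 0.00475 and 0.0043).

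Tap1, although it shares its start region with Psmb9, was lower in the clone than in CDC (-0.37 ± 0.12, adjusted p = 0.0123), at 23.2, 33.5 and 32.6 CPM against 38.7, 34.2 and 41.9 CPM. In pEpiC vs CDC, Psmb9 (-0.55 ± 0.22, adjusted p = 0.0373) and Tap1 (-0.46 ± 0.15, adjusted p = 0.0142) were lower. The Psmb9 call there was lost with 5 of the 6 libraries left out in turn, and with an offset for transcript length the sign turned (0.39, adjusted p = 0.133). The sign of Tap1 turned on TPM, where its log2 change was 0.015. Psmb9, Psmb8, Irf1 and Ifi35 were the members higher in the clone than in pEpiC, Ifi35 by 0.51 ± 0.15 (adjusted p = 0.00916), which became -0.017 with the length offset.

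Upstream of the members, the interferons themselves were near absent. Of 21 interferon genes listed, 9 had a row in the table, 8 of these held at most 3 counts in every library, and 2 held none. Ifnb1, the interferon that most cells make first, held 1 count in 2 of the 9 libraries and none in the others, which is under the limit of 3 counts that a count of 0 allows. Ifnz, picked out after its values were seen, held 16, 16 and 13 counts in pEpiC and none in CDC or CDC-EpiC, so that its pEpiC level was at least 4.75-fold higher than the level of 3 counts per library in CDC. No library of pEpiC stood apart in it.

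The type I receptor chains were present in every library. Ifnar1 held 1908 to 1925 counts in CDC, 2400 to 2456 in CDC-EpiC and 2498 to 2546 in pEpiC, and Ifnar2 held 1861 to 2631 over all libraries. Ifnar1 was higher in pEpiC (0.29 ± 0.05, adjusted p = 0.000495) and in the clone (0.31 ± 0.07, adjusted p = 0.00106) than in CDC. Of the 11 receptors and transducers, 5 were higher and 4 lower in pEpiC vs CDC (9 passed, against 78.3% of all genes), 3 and 1 in CDC-EpiC vs CDC (4 passed, against 68.8%), and 5 and 4 in CDC-EpiC vs pEpiC (9 passed, against 81.9%). Their median log2 changes were 0.23, 0.09 and 0.11. Jak1 was lower in the clone than in CDC (-0.72 ± 0.09, adjusted p = 4.06e-06) and than in pEpiC (-1.25 ± 0.05, adjusted p = 5.32e-09), and Tyk2 was higher in the clone than in both (0.84 ± 0.07 and 0.47 ± 0.05, adjusted p = 7.48e-08 and 8.03e-06). Ifngr1 and Ifngr2 differed by log2 changes of at most 0.35 in size in any comparison.

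Of the 18 sensors and adaptors upstream of interferon, 16 of 17 tested passed in pEpiC vs CDC (10 higher, 6 lower), 14 of 15 in CDC-EpiC vs CDC (11 and 3) and 15 of 17 in CDC-EpiC vs pEpiC (7 and 8), where 78.3%, 68.8% and 81.9% of all genes passed. Their median log2 changes were 0.45, 0.28 and -0.10. Irf5, a factor downstream of Toll-like receptors, held 2102 to 2513 counts in the clone against 246 to 269 in CDC and 188 to 258 in pEpiC, a log2 change of 3.13 ± 0.10 against CDC (adjusted p = 4.47e-13). Tlr3, the endosomal sensor of double-stranded RNA, fell in the clone (-1.05 ± 0.13 against CDC, adjusted p = 2.67e-06). Irf3, the factor that starts interferon transcription, was lower in pEpiC than in CDC (-0.43 ± 0.09, adjusted p = 0.000851) and higher in the clone (0.28 ± 0.09, adjusted p = 0.0089). Tlr7 held 355, 118 and 86 counts in the pEpiC libraries and at most 4 elsewhere, the order that the macrophage markers had.

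Of 12 negative regulators, 4 were higher and 5 lower in pEpiC vs CDC, 7 and 1 in CDC-EpiC vs CDC, and 6 and 3 in CDC-EpiC vs pEpiC. In all 75%, 66.67% and 75% passed, near the 78.3%, 68.8% and 81.9% of all genes. Socs3, a feedback inhibitor of JAK kinases, was lower in pEpiC than in CDC (-0.98 ± 0.08, adjusted p = 1.49e-06), and Irf2, which competes for Irf1 sites, was higher in the clone than in CDC (0.72 ± 0.08, adjusted p = 2.22e-06). Adar, an RNA editing enzyme with an interferon-driven form, rose in pEpiC vs CDC (0.61 ± 0.14, adjusted p = 0.00216).

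Another list, of 51 interferon-stimulated genes that are no members, had 48 in the table and the same libraries highest and lowest. In pEpiC, 38 of its 43 genes at 1 CPM or more were highest in library 3 (34.29% of all genes), with a median ratio of 1.60. In CDC, 37 of 42 were highest in library 3 (45.39% of all genes), and in CDC-EpiC 33 of 42 were lowest in library 1 (38.69% of all genes). Between kinds, 21 of 47 tested were higher and 6 lower in pEpiC vs CDC, 14 and 10 of 45 in CDC-EpiC vs CDC, and 8 and 21 of 46 in CDC-EpiC vs pEpiC. Over all genes the shares were 39.8% higher and 38.5% lower, 34.2% and 34.6%, and 40.3% and 41.5%.

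Slfn5, a nuclear protein of the Schlafen family, was among the largest of these changes and stood at 135, 140 and 162 CPM in pEpiC and at 1.23 to 2.55 CPM in the other kinds (6.06 ± 0.13 in pEpiC vs CDC, adjusted p = 2.39e-10). Slfn2 stood at 0.866 to 1.02 CPM in the clone against 14.1 to 21.5 CPM in CDC (-4.23 ± 0.19, adjusted p = 4.26e-11). Cxcl10, a chemokine that attracts T cells, stood at 2.53, 8.38 and 5.11 CPM in the clone against 1.06 to 2.09 CPM in CDC (1.84 ± 0.36, adjusted p = 0.000326), so not every interferon target was low in the clone.

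The remaining genes of antigen presentation were higher in the clone than in CDC for 13 of 15 tested, with 1 lower, where 34.2% of all genes were higher and 34.6% lower. Of the 14 at 1 CPM or more, 13 were highest in library 3 of pEpiC and 12 in library 3 of CDC, with median ratios of 1.22 in both. Of the 15 at that level in CDC-EpiC, 14 were lowest in library 1 (median ratio 0.88). H2-K1, a class I heavy chain, rose by 1.45 ± 0.12 (adjusted p = 5.69e-08), Psmb10, the third immunoproteasome subunit, by 1.04 ± 0.08 (adjusted p = 1.38e-08) and Psme1, a proteasome activator, by 0.94 ± 0.08 (adjusted p = 5.75e-08). In pEpiC vs CDC 8 of 15 were higher (39.8% of all genes), among them H2-K1 (1.10 ± 0.13, adjusted p = 2.22e-05), and 3 were lower, among them Psmb10 (-1.05 ± 0.08, adjusted p = 1.17e-06). Psmb8 and Psmb9, members of the main list, thus lay on the same side as Psmb10 in the clone.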

How the data were processed

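Messenger RNA of 3 kinds of cultured mouse heart cell was sequenced on the BGISEQ-500. The deposited table gives, for each gene and library, expected counts (reads assigned by the authors with a model), FPKM and TPM, which the authors computed from those counts, scaled by transcript length and library total. The submitters' processing notes list HISAT2 2.0.4, Bowtie2 2.2.5, RSEM 1.2.12, DESeq2 1.4.5 and the build mm10, without their roles. The 9 columns of the authors' averages were not used. Of the count values, 30.3% were not whole (tolerance 0.005), which marks reads shared between loci, and 22 of the 35 members had such a value in at least 1 library. Counting by strand is not given in the sources used here.

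Expected counts were rounded and tested on the libraries of each pair of kinds with edgeR 4.0.16 in R 4.3.3: filterByExpr (minimum count 10, minimum total 15), TMM scaling, glmQLFit and glmQLFTest, without covariates. P-values were adjusted by Benjamini-Hochberg over all genes tested, with a threshold of 0.05. Every member could be named. From the other lists Ifnar1, Ifnar2, Ifngr1, Ifngr2, Jak1, Tyk2, Irf3 and Ifnb1 were always named (1 gene of this rule is not reported here), and per list and comparison up to 4 genes with the largest change among those that passed without overlap and had a mean of at least 5 CPM in the higher kind. Members and lists were chosen with earlier results of these data known. The procedure was tested on simulated data. The simulated libraries were independent and were given less spread than most members had, so the test does not cover members that vary together by library. Libraries of the same number did not deviate together throughout (correlations of -0.101 to 0.163). Such weak correlations cannot exclude pairing, and the numbers are not known to pair the libraries. Depth ran from 22008833 to 22756045 counts, and floors of 3 counts cover counting error only. Promoter windows came from RefSeq and were matched by gene ID. Alternatives were RLE size factors, library size alone, no or another filter on low counts, DESeq2 1.42.0, limma 3.58.1 on TPM and FPKM, a length offset, all 9 libraries in 1 fit, a replicate block, each library left out and, chosen after seeing the data, library 3 of CDC and pEpiC both left out. Figures and counts were made with Python 3.11.15, pandas 2.3.3, numpy 2.4.6 and matplotlib 3.10.9.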

Additional observations from a re-analysis of the deposited data

How the results depend on the processing

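The counts of members called moved with single libraries and with the unit, and the cause was not tested. With each library left out in turn, 9 to 19 members were higher and 2 to 8 lower in pEpiC vs CDC, 6 to 12 higher and 15 to 18 lower in CDC-EpiC vs CDC, and 4 to 4 higher and 16 to 26 lower in CDC-EpiC vs pEpiC. Without library 3 of both CDC and pEpiC, 7 were lower in pEpiC vs CDC, and Dhx58 (-0.08), Usp18 (-0.16), Rsad2 (-0.38) and Igtp (-0.03) turned sign. On TPM, 20 members were higher and 1 lower in pEpiC vs CDC, and 2 were higher and 27 lower in CDC-EpiC vs pEpiC, where the length offset also left 2 higher. With all 9 libraries in 1 fit, 12 were lower in CDC-EpiC vs CDC. TPM moved the median of all genes to 0.41 in pEpiC vs CDC and -0.33 in CDC-EpiC vs pEpiC, and the share of calls that were higher to 74.5% and 32.9%, against 50.8% and 49.3%. Library size alone moved that median to 0.13 in pEpiC vs CDC. The replicate block, although the numbers are not known to pair the libraries, gave 21 higher and 6 lower, 8 and 17, and 4 and 25 in the order of comparisons above. With DESeq2 the counts were 10 and 3, 5 and 14, and 4 and 17.

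Members that passed a test and turned sign were Psmb9 (0.39 with the length offset) and Tap1 (0.015 on TPM) in pEpiC vs CDC and Ifi35 (-0.017 with the length offset) in CDC-EpiC vs pEpiC. In pEpiC vs CDC, Irf7 and Parp9 gained a call under 10 of 17 alternatives, Ifit3 under 9 and Eif2ak2 under 8. In CDC-EpiC vs pEpiC, Bst2 gained one under 8 of 16. Irf1 in pEpiC vs CDC and Parp9 in CDC-EpiC vs CDC passed under an alternative that turned their sign (lowest adjusted p over the alternatives 0.000646 and 0.0182). Members that had not passed in the main fit turned sign as follows. In pEpiC vs CDC these were Irf1 (0.049 by library size, 0.42 on TPM, 0.051 on FPKM, 0.15 with the length offset), Bst2 (0.068, 0.41, 0.032 and 0.93 in the same order, and 0.003 with all 9 libraries in 1 fit), Gbp2 (0.34 on TPM), Xaf1 (0.005 with the length offset) and Psmb8 (0.31 on TPM, 0.46 with the length offset). In CDC-EpiC vs CDC they were Gbp7 (0.015 on TPM, 0.007 on FPKM) and Parp9 (0.049 by library size, 0.096 on TPM, 0.073 on FPKM, 0.017 with the replicate block). In CDC-EpiC vs pEpiC they were Dhx58 (-0.22 on TPM, -0.031 with the length offset), Trim25 (0.28 with the length offset) and Tap1 (-0.30 on TPM).

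Leaving out single libraries turned the sign of members that had not passed. In pEpiC vs CDC the log2 change ran from -0.37 to 0.35 for Dhx58, -0.52 to 0.45 for Usp18, -0.52 to 0.70 for Rsad2, -0.44 to 0.19 for Bst2, -0.44 to 0.10 for Gbp2, -0.32 to 0.79 for Rtp4, -0.24 to 0.80 for Zbp1 and -0.26 to 0.34 for Igtp. In CDC-EpiC vs CDC it ran from -0.30 to 0.074 for Ddx58, -0.01 to 0.50 for Dhx58, -0.31 to 0.32 for Oasl2, -0.20 to 0.17 for Gbp7, -0.14 to 0.24 for Parp9, -0.66 to 0.081 for Rtp4 and -0.30 to 0.091 for Igtp. In CDC-EpiC vs pEpiC it ran from -0.10 to 0.53 for Dhx58, -1.03 to 0.18 for Rsad2, -0.18 to 0.091 for Trim25, -0.10 to 0.25 for Tap1 and -0.46 to 0.073 for Igtp. Under every alternative that gave a value, 9 of 14 higher and 1 of 4 lower calls in pEpiC vs CDC, 5 of 6 and 12 of 17 in CDC-EpiC vs CDC, and 2 of 4 and 16 of 20 in CDC-EpiC vs pEpiC were kept.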
